A study of Homo sapiens with 9 samples.

Results

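HMOX1 and 9 further genes of the NRF2 antioxidant program were followed through 9 Affymetrix expression arrays of the human neuroblastoma line SK-N-AS. The 10 genes were taken by name, with every probe set that names them: HMOX1, NQO1, GCLM, GCLC, TXNRD1, SRXN1, SLC7A11, OSGIN1, SQSTM1 and NFE2L2, of 19775 genes with a usable probe set. They are read by 25 of the 54675 probe sets on the array, and by 1 more that names NFE2L2 together with CSNK2A1 and was not used. The question was whether HMOX1 rises together with the wider NRF2 program or by itself. One series of arrays comes from cells given a construct for full-length NRSF (RE-EX1), and one from cells given a construct for a truncated NRSF (HZ4). The third series comes from untreated cells, and no empty vector is named in the labels. Each series has 1 array at 0, 24 and 48 h, and the 0 h array is its own baseline. NRSF, the product of REST, is a transcriptional repressor. The promoter that drives the constructs, the transfection method and the share of cells that took up the construct were found in no label (not given in the sources used here).

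NRF2, the product of NFE2L2, is a transcription factor that KEAP1 holds in the cytoplasm and marks for degradation. When electrophiles or oxidants modify KEAP1, NRF2 accumulates, pairs with a small MAF protein and binds antioxidant response elements in front of genes for glutathione synthesis, thioredoxin recycling and quinone reduction. HMOX1, heme oxygenase, splits heme into biliverdin, iron and carbon monoxide. Its control is shared: BACH1 represses it at the same elements, and AP-1, ATF4 and heat shock factors are also known to act on it.

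The core of an antioxidant response element was searched in RefSeq promoter windows (GRCh38.p14, 250 bases before to 50 after a transcription start). It was written TGACNNNGC and looked for on both strands. The windows below are shown because they hold the only matches among the members. Of 12 windows, which cover 8 of the members, 3 held the core, while 13.3% of all 35116 windows did. Each line gives the 250 bases before the start, 5′ to 3′ along the gene, with the matched letters in capitals. GCLM lies on the minus strand at chr1:93909431-93909680, and its match begins 34 bases before the start. TXNRD1 has a window at chr12:104215529-104215778 on the plus strand, with matches that begin 99 and 8 bases before the start; the last letter of the nearer one is the start base itself and is not shown. The other TXNRD1 window, chr12:104286782-104287031, has a match that begins 102 bases before the start.
GCLM: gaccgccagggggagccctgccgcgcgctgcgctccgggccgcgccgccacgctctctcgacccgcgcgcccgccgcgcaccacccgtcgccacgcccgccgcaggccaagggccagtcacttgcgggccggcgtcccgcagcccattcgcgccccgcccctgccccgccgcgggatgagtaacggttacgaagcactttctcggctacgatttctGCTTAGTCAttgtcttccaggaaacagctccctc
TXNRD1, upstream start: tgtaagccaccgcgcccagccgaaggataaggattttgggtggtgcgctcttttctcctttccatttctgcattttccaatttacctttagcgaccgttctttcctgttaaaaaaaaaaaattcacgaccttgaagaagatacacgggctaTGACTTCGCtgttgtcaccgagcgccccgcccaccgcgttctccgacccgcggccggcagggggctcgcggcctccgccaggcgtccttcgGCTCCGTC
TXNRD1, downstream start: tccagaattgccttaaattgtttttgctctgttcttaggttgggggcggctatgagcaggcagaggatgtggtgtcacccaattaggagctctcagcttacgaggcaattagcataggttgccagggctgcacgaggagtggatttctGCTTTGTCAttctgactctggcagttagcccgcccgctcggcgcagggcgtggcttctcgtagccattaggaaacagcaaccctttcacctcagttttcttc

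The AP-1 site, TGANTCA, was found in 1 of the 12 windows and in 7.71% of all windows. That window belongs to OSGIN1 (chr16:83952990-83953239, plus strand), where the match begins 97 bases before the start. It is shown because OSGIN1 alone among the members with a window held this site.
OSGIN1: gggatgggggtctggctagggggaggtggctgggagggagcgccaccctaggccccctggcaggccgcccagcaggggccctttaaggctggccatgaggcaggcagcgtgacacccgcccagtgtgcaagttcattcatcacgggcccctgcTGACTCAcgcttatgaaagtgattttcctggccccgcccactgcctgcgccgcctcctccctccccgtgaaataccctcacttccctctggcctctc

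The antioxidant core and the AP-1 site share their first letters and can overlap, but no match in a member window held both. The cAMP response element palindrome TGACGTCA, the amino acid response core TGATGNAA and the E-box CACGTG were in 0 of the 12 windows, and in 1.85%, 3.62% and 7.26% of all windows. HMOX1 and SLC7A11 had no window in the table. A match describes letters in the window and not a bound site.

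The array signals are linear, were scaled by the authors to one target, and are given here as deposited. For tests they were floored at 8.266, the 25th percentile of all values, and put on the log2 scale. The brightest probe set stood for each gene, and 13799 genes passed a filter on low signal, all 10 members among them. The median signal of an array was 30.87 to 42.67, and 21.9% to 26.9% of an array's values lay at the floor. The truncated 24 h array stood apart: its median correlation with the others was 0.909, against 0.922 to 0.931, and its dimmest 20% of genes read 0.52 log2 above their mean over arrays. Results that rest on the truncated 24 h array are given without it where it changes them. On the full-length 0 h array the dimmest 20% read 0.32 above their mean, the next highest value. The 3′ to 5′ signal ratio of the ACTB control, a check on RNA quality, was 2.25 to 4.19. It was highest on that full-length 0 h array, and the GAPDH ratio was 0.962 to 1.62. REST, the gene behind both constructs, read 162 to 177.2 on the 0 h arrays, 268.3 to 444.7 at 24 h and 260.3 to 341.6 at 48 h. The untreated array was the brightest at 0 and 24 h and the dimmest at 48 h, so this check did not set the constructs apart from untreated cells. Of 13 sympathoadrenal markers 10 passed the filter, and at 24 h 0 were called up and 1 down. Over all genes 8.04% were called up and 8.2% down, so the 1 is near the share of all genes. The summed signal of those with a usable probe set was 3010 to 3913 at 0 h, 2733 to 3300 at 24 h and 3171 to 3471 at 48 h. GATA3 was bright on every array (1346 to 1912) and PHOX2A read 72.16 to 145.9, while TH was at the floor on 2 arrays and DBH on 5. Of 10 mesenchymal markers, all past the filter, 2 were called up at 24 h and 5 down, beside the same shares of all genes. Their summed signal was 31150 to 36960 at 0 h, 22410 to 26680 at 24 h and 26490 to 31880 at 48 h. VIM, at 9354 to 14400, was the largest part of that sum on every array. PRRX1 read 4345 to 4971 at 0 h, 1811 to 2172 at 24 h and 4016 to 5612 at 48 h. FN1 read 1066 to 1359 on the 0 h arrays and 401 to 519.7 at 24 h. SNAI2 read 497.5 to 706 at 0 h and 1396 to 1499 at 24 h. Whether these marker changes play a part in the members' changes was not tested.

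HMOX1 rose strongly after 0 h in all 3 series, untreated cells included. Its gene lies on chromosome 22 (35381096 to 35394207), and a single probe set reads it. With full-length NRSF its signal was 58.27 at 0 h, 367.1 at 24 h and 499.1 at 48 h. With truncated NRSF it was 51.87, 528.8 and 580.5, and untreated cells read 66.36, 416.1 and 630.9. The 3 arrays at 0 h lay close together, every later array was far above all of them, and 48 h was above 24 h within each series. Across the 3 series HMOX1 was 7.38-fold higher at 24 h than at 0 h, a log2 difference of 2.88 ± 0.21 (SE, n = 3 series; limma, Benjamini-Hochberg adjusted p = 1.5e-07). At 48 h it was 9.7-fold higher, 3.28 ± 0.21 (limma, adjusted p = 1.6e-07). By size these were the 13th and the 3rd largest rises of the 13799 genes. The further step from 24 to 48 h, 0.39 ± 0.21, did not pass (limma, adjusted p = 0.34). Both rises from 0 h passed in all 14 alternative settings.

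**Figure D1:**
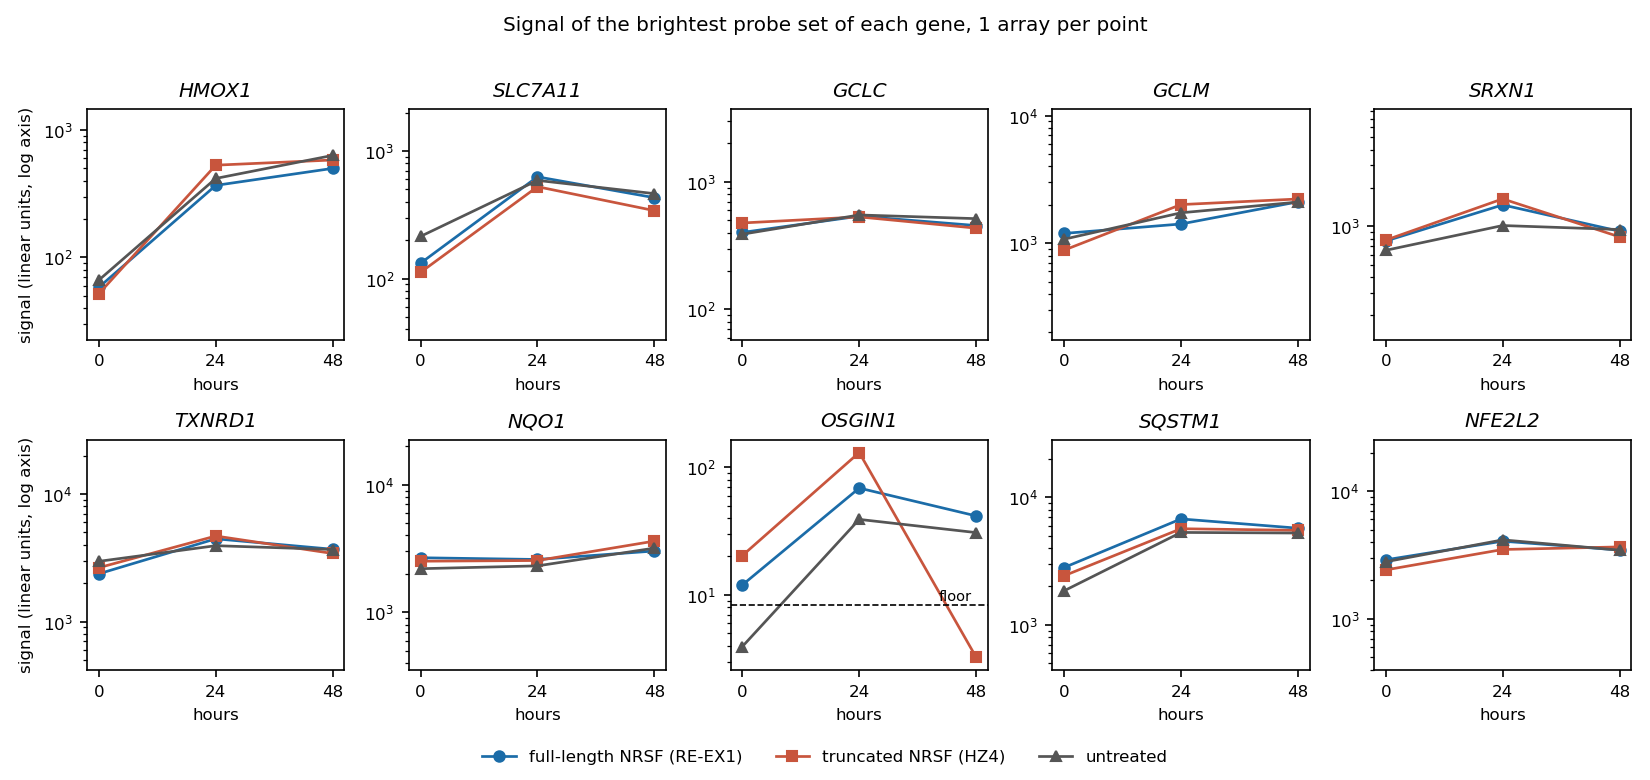
Signal of each member's brightest probe set (log axis, arbitrary array units) against hours, 1 line for each series and 1 point for each array. Every panel spans the same log range. HMOX1 starts at 51.87 to 66.36 and ends at 499.1 to 630.9 in the 3 series, while NQO1 stays between 2197 and 3616 throughout. The dashed line in the OSGIN1 panel is the floor of 8.266.

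Most of the other members also rose at 24 h, by less. Of the 10 genes, 8 were called up and 0 down in the 24 h comparison, where 8.04% of all genes tested were called up and 8.2% down. GCLC and NQO1 were not called. The median log2 difference of the 10 was 0.80, and that of all genes −0.03. At 48 h 4 of the 10 were called up and 0 down, where 4.5% of all genes were called up and 3.88% down, and the median was 0.62 against −0.01. All 3 arrays at 24 h lay above all 3 at 0 h for 9 of the 10, NQO1 being the exception, and for 14.3% of all genes. At 48 h this held for 8 of the 10, all but GCLC and OSGIN1, and for 13.6% of all genes. The calls at 24 h depended on few arrays: 5 passed without the full-length series, 5 without the truncated series and 6 without the untreated series. They also depended on the scaling, since 4 passed when each array was divided by its own median. The 10 genes were chosen for a shared known regulator, with earlier results of these data known. These counts are no test of the group.

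**Figure D2:**
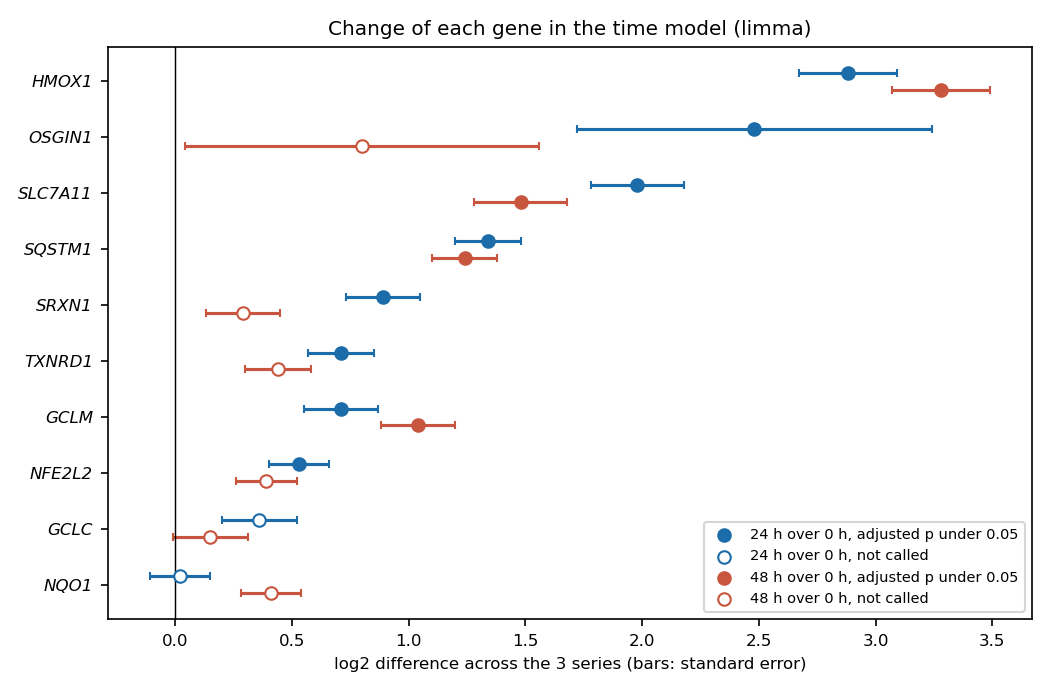
Log2 difference across the 3 series for the 10 members, 24 h (blue) and 48 h (red) over 0 h, as limma estimates with bars of 1 standard error; filled points have an adjusted p under 0.05. HMOX1 is at 2.88 and 3.28, NQO1 is at 0.02 and 0.41, and OSGIN1 has the widest bar, an SE of 0.76.

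SLC7A11, the cystine carrier subunit of the exchanger that supplies cysteine for glutathione, had the smallest p after HMOX1 among the members at 24 h. Full-length NRSF cells read 131.9, 627.3 and 430.4 at 0, 24 and 48 h. Truncated NRSF cells read 111.8, 524.9 and 340.7, and untreated cells 214, 588.1 and 463.1. All later arrays lay above all 0 h arrays, and each series was lower at 48 h than at 24 h. The rise was 3.94-fold at 24 h (log2 1.98 ± 0.20, limma, adjusted p = 5.3e-06) and 2.78-fold at 48 h (1.48 ± 0.20, limma, adjusted p = 0.00027). The fall from 24 to 48 h, 0.50 in log2, did not pass (limma, adjusted p = 0.18). Its other probe sets were also called up at both times, by 1.46 and 2.37 at 24 h.

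The paired subunits of glutamate-cysteine ligase, the rate-limiting enzyme of glutathione synthesis, differed in their calls. GCLM, the modifier subunit, read 1193, 1414 and 2110 with full-length NRSF. Truncated NRSF gave 881.3, 2008 and 2221, and untreated cells 1074, 1731 and 2101. The signal was higher at each later time in every series, with the smallest early step in the full-length series. GCLM rose by 0.71 ± 0.16 at 24 h (limma, adjusted p = 0.0061) and by 1.04 ± 0.16, or 2.06-fold, at 48 h (limma, adjusted p = 0.00091). Without the truncated 24 h array the 24 h difference was 0.54 and missed the threshold (limma, adjusted p = 0.056), as it did without the whole truncated series (0.47, adjusted p = 0.095). Of its dimmer probe sets, 1 was called at 48 h (0.82, limma over all probe sets, adjusted p = 0.011) and the other at neither time (0.15 and 0.08).

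GCLC, the catalytic subunit, read 401.1, 537.9 and 454.4 with full-length NRSF. Its values were 475.9, 530.9 and 433.4 with truncated NRSF and 388.4, 549.9 and 514.5 without a construct. On this probe set the 24 h arrays lay just above the 0 h arrays, while the 48 h arrays overlapped them. Neither the 24 h difference (0.36 ± 0.16, 95% interval 0.02 to 0.71; limma, adjusted p = 0.16) nor the 48 h difference (0.15 ± 0.16, adjusted p = 0.64) passed. A dimmer GCLC probe set past the filter differed by −0.01 at 24 h and −0.27 at 48 h (limma over all probe sets, adjusted p = 0.98 and 0.61). A direct test of GCLM against GCLC was not run.

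The members that serve peroxiredoxins and thioredoxin, SRXN1 and TXNRD1, rose at 24 h and were not called at 48 h. SRXN1, sulfiredoxin, which reactivates over-oxidized peroxiredoxins, read 766.4, 1472 and 914.4 with full-length NRSF. The truncated form gave 779.2, 1641 and 825.7, and untreated cells 648.1, 1014 and 943.3. Each series peaked at 24 h. The rise was 1.85-fold at 24 h (0.89 ± 0.16, limma, adjusted p = 0.0014), and the 48 h difference of 0.29 ± 0.16 did not pass (adjusted p = 0.30). From 24 to 48 h SRXN1 differed by −0.59 ± 0.16, just outside the threshold (limma, adjusted p = 0.054), and was called without the untreated series (−0.84, adjusted p = 0.036).

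TXNRD1, the cytosolic thioredoxin reductase, read 2372, 4461 and 3694 with full-length NRSF. It read 2648, 4693 and 3422 with truncated NRSF and 2970, 3940 and 3677 without a construct. Again each series was highest at 24 h and no later array overlapped the 0 h arrays. TXNRD1 rose 1.64-fold at 24 h (0.71 ± 0.14, limma, adjusted p = 0.0025), and at 48 h the difference was 0.44 ± 0.14 (adjusted p = 0.066). The 24 h call was lost without the full-length series (0.62, adjusted p = 0.052). The other probe set is dim, lies below the filter and at 24 h differed by −2.03, −0.95 and −1.72 in log2 (full-length, truncated, untreated), with 3 of its 9 arrays at the floor. With the mean of both probe sets as the gene's value, the 24 h difference turned to −0.42 (limma, adjusted p = 0.22).

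NQO1, the quinone reductase often used as a readout of NRF2, was not called at 24 h. Its signals were 2677, 2595 and 3024 with full-length NRSF. They were 2515, 2547 and 3616 with truncated NRSF, and untreated cells read 2197, 2312 and 3186. The 0 and 24 h arrays overlapped, and the 48 h arrays lay above both. The 24 h difference was 0.02 ± 0.13 (95% interval −0.27 to 0.30; limma, adjusted p = 0.96), so this interval reaches a rise of at most 0.30 in log2. At 48 h it was 0.41 ± 0.13 and missed the threshold (limma, adjusted p = 0.068). Its other probe sets differed by 0.16 and −0.08 at 24 h and by 0.53 and 0.23 at 48 h, none of them called. All 3 carry the _s_at suffix, which marks possible reading of related transcripts.

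OSGIN1, an oxidative stress induced growth inhibitor, was near background and its calls were fragile. It read 11.93, 68.68 and 41.54 with full-length NRSF. The truncated form gave 20.27, 130.5 and 3.238. Untreated cells read 3.922, 39.02 and 30.74. The untreated 0 h and truncated 48 h values lie below the floor and were set to it, so changes that use them are bounds. Each series was highest at 24 h, and no 24 h array overlapped the 0 h arrays. OSGIN1 was 2.48 ± 0.76 higher at 24 h (limma, adjusted p = 0.035), but the call held in only 5 of 13 alternatives, and without the truncated 24 h array the value was 1.86 (adjusted p = 0.24). Leaving out the full-length, truncated or untreated series gave adjusted p = 0.18, 0.07 and 0.073. At 48 h the difference was 0.80 ± 0.76 (adjusted p = 0.59).

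SQSTM1, the autophagy receptor p62, both binds KEAP1 and is itself an NRF2 target. It read 2809, 6759 and 5719 with full-length NRSF. Truncated NRSF gave 2421, 5664 and 5500, and untreated cells 1845, 5296 and 5240. The later arrays stood well clear of the 0 h arrays and differed little between 24 and 48 h. SQSTM1 rose 2.53-fold at 24 h (1.34 ± 0.14, limma, adjusted p = 7.9e-06) and 2.36-fold at 48 h (1.24 ± 0.14, limma, adjusted p = 7.5e-05). The 48 h call rests on _s_at probe sets: the brightest and the third brightest, both of that kind, were called (1.24 and 0.85). The other 3 were not (0.31, 0.68 and −0.01). At 24 h 3 of the 5 probe sets were called. On the fourth brightest, full-length NRSF differed by 2.68 at 24 h, from a 0 h value below the floor, and truncated NRSF and untreated cells by 0 and 0.08.

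NFE2L2 itself read 2897, 4056 and 3456 with full-length NRSF. The truncated form gave 2414, 3491 and 3657, and untreated cells 2797, 4154 and 3449. On this probe set all later arrays exceeded all 0 h arrays, by a modest margin. The transcript rose 1.44-fold at 24 h (0.53 ± 0.13, limma, adjusted p = 0.012) and was 0.39 ± 0.13 higher at 48 h (adjusted p = 0.089). The 24 h call was lost without the full-length (0.55, adjusted p = 0.067), truncated (0.53, adjusted p = 0.057) or untreated series (0.51, adjusted p = 0.096). A dimmer probe set past the filter differed by 1.07 at 24 h and 0.80 at 48 h. It was not called (limma over all probe sets, adjusted p = 0.088 and 0.27). Its full-length 24 h signal of 56.16 lay below the truncated 0 h signal of 56.85. NRF2 is regulated chiefly through protein stability, which these arrays do not measure.

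**Figure D3:**
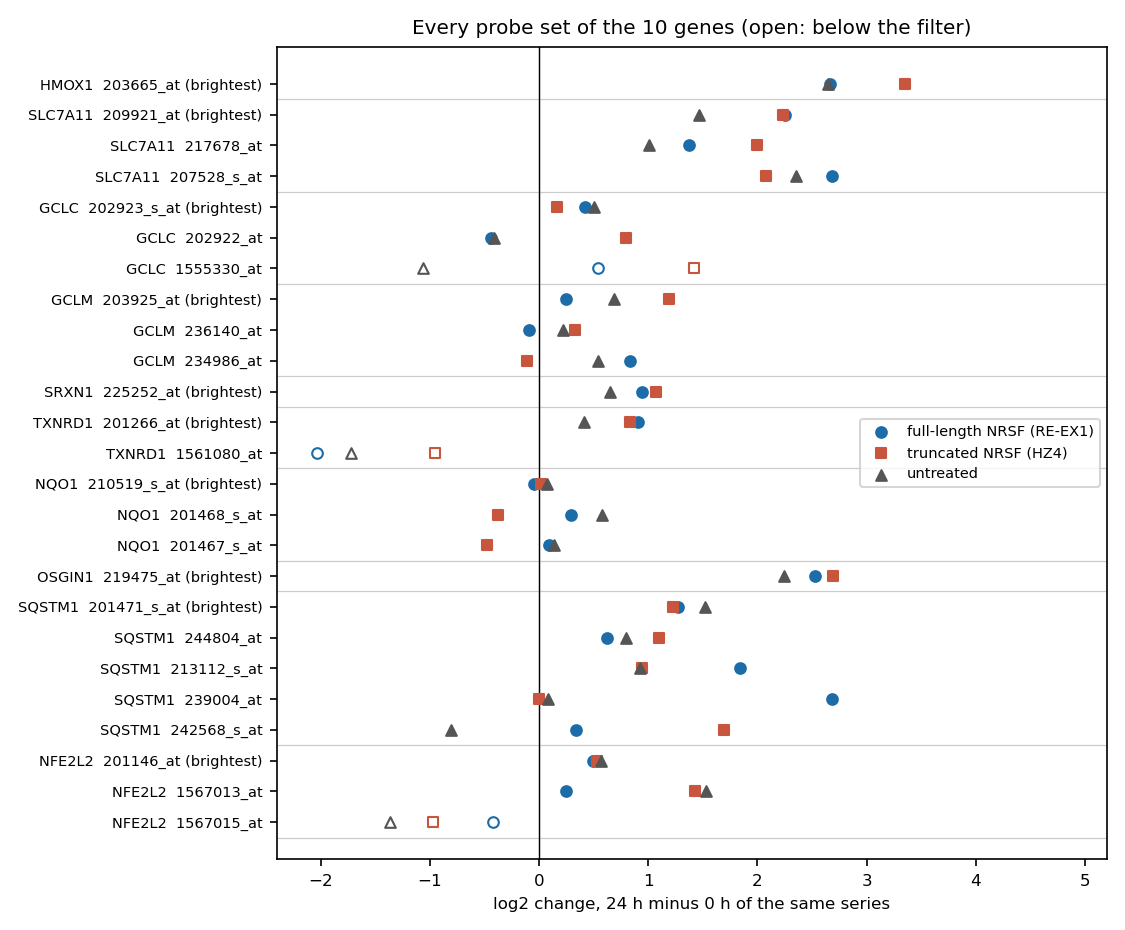
Log2 change from 0 to 24 h on each of the 25 probe sets of the 10 genes, 1 symbol for each series; open symbols mark the 3 probe sets below the filter. All 3 probe sets of SLC7A11 lie above 1 in every series, while the open symbols of TXNRD1 and NFE2L2 lie below 0.

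In the fit over all 26480 probe sets past the filter, 6.62% were called up and 6.47% down at 24 h, and 3.26% up and 2.96% down at 48 h. Of the members' 22 probe sets in that fit, none was called down at either time, which is near those shares for so few probe sets. Calls up are given gene by gene above. The other 3, of GCLC, NFE2L2 and TXNRD1, lay below the filter and were not tested.

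Set beside the other members, HMOX1 had the largest rise from the 0 h array in both construct series, at 24 and at 48 h. In untreated cells it rose more than 8 of the other 9 members at both times. OSGIN1 has no order against it there, because its untreated 0 h signal of 3.922 lies below the floor and its changes of 2.24 and 1.90 are lower bounds. At 24 h HMOX1 was 2.66 higher in log2 with full-length NRSF, where the median of the other 9 was 0.91. With truncated NRSF it was 3.35 higher against a median of 1.07, and without a construct 2.65 against 0.65. At 48 h the values were 3.10 against 0.64, 3.48 against 0.52 and 3.25 against 0.54. The nearest member at 24 h in the construct series was OSGIN1, at 2.53 and 2.69. Of the other 9 genes, 3 were at least 2-fold higher at 24 h with full-length NRSF, 5 with truncated NRSF and 3 in untreated cells. Of all genes, 9.67%, 15.3% and 8.81% were. At 48 h it was 3 of 9 in each series, and of all genes 7.99%, 9.67% and 8.44%. These single-series changes rest on 1 array a group and carry no test, and HMOX1 was not tested against the other members.

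Neither construct was called to alter any member beyond the untreated course. The change of each construct series from 0 h was compared with that of the untreated series and with each other, which gives 30 tests of members. None passed, and 1 had an unadjusted p under 0.05 (limma), as did 4.19%, 7.65% and 6.18% of all genes in the 3 comparisons. After adjustment 0.00725% of all genes were called for full-length NRSF against untreated, 0.0362% for truncated NRSF against untreated and 0.0145% for full-length against truncated NRSF. HMOX1 differed by −0.07 for full-length NRSF (95% interval −1 to 0.86) and by 0.47 for truncated NRSF (−0.46 to 1.40). Both intervals are wide and include differences near 2-fold. The smallest p was that of GCLM, whose change was lower with full-length than with truncated NRSF (−0.73 ± 0.30, unadjusted p = 0.027; limma, adjusted p = 0.73). For SLC7A11 both constructs lay above untreated, by 0.69 (−0.12 to 1.51) and 0.63 (−0.18 to 1.45), and its untreated 0 h array was the brightest of the 3 at 0 h. The lack of calls does not show that the series moved alike. The time comparisons take the 3 series as replicates because each has 1 array per time, and what differs with hours in culture, medium or handling cannot be told apart from time.

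Between 24 and 48 h no member was called, where 1.72% of all genes were called up and 1.78% down. By unadjusted p under 0.05 in limma, 1 was higher (NQO1) and 3 were lower (SRXN1, SLC7A11 and OSGIN1), and 17.9% of all genes passed that mark in either direction. The 48 h arrays lay wholly above the 24 h arrays for GCLM and NQO1, and for 10.3% of all genes. They lay wholly below for GCLC, SLC7A11, SRXN1 and TXNRD1, and for 10.5% of all genes. HMOX1, GCLM and NQO1 were higher at 48 h than at 24 h in all 3 series. SLC7A11, SRXN1, TXNRD1, GCLC, SQSTM1 and OSGIN1 were lower in all 3, and NFE2L2 was lower in 2.

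In a longer list of other NRF2 targets, more genes fell than rose at 24 h. The list held 43 genes and 35 passed the filter. At 24 h 2 were called up, 8 were called down and 25 were not called, with 26 of 35 below 0 and a median of −0.22. Over all genes 8.04% were called up and 8.2% down, so the 2 that rose are near the share of all genes; the same shares apply at 24 h to each list that follows, and 4.5% and 3.88% at 48 h. The risers were TRIM16, a ubiquitin ligase that acts with p62 and NRF2 (1.10, limma, adjusted p = 0.00074), and the small MAF partner MAFG (0.87, adjusted p = 0.026). TRIM16 read 236.1, 256.6 and 247.6 on the 0 h arrays (full-length, truncated, untreated) and 465.2, 709.2 and 448.5 on the 24 h arrays. Those that fell most were the export pump ABCC1 (−1.19, limma, adjusted p = 0.00019), the NADPH-producing IDH1 (−1.09, adjusted p = 0.00026), and the exporter ABCC4 (−0.96, adjusted p = 0.0034). In the same order, ABCC1 went from 803.4, 688.3 and 923.1 to 407.1, 352.2 and 300.7, with no overlap. The other genes called down were GSTM2 (−0.85), ABCC5 (−0.83), NQO2 (−0.77), GSTM3 (−0.56) and TALDO1 (−0.54). Core redox genes of the list were not called: GSR, glutathione reductase, differed by 0.31 (limma, adjusted p = 0.29), TXN, thioredoxin, by −0.07 (0.79), and PRDX1, a peroxiredoxin, by −0.18 (0.46). With each array divided by its median, 1 of the list was called up and 5 down.

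At 48 h 4 of the 35 were up and 2 down, with a median of 0.00. AKR1C1, an aldo-keto reductase (0.94, limma, adjusted p = 0.012), ME1, malic enzyme (0.69, adjusted p = 0.0087), BLVRA, biliverdin reductase (0.61, adjusted p = 0.018), and FTL, ferritin light chain (0.59, adjusted p = 0.043), had risen. IDH1 and ABCC1 were still lower (−0.99 and −0.81). The probe sets of AKR1C1, BLVRA and FTL carry the _x_at suffix, so their values may include related genes, as may that of GSTM2. From 24 to 48 h 4 of the 35 were called up and 0 down, with a median of 0.38. Over all genes 1.72% were called up and 1.78% down between these times, with a median of 0.01. The 4 were AKR1C1 (1.40), BLVRA (0.86), NQO2 (0.73) and ME1 (0.57). AKR1C1 read 324.9, 284.5 and 608.5 over time under full-length NRSF. Truncated NRSF gave 311.2, 260.5 and 935.4, and untreated cells 496.6, 258.6 and 621.4. With each array divided by its median, only 1 gene of the list was called at 48 h against 0 h.

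**Figure D4:**
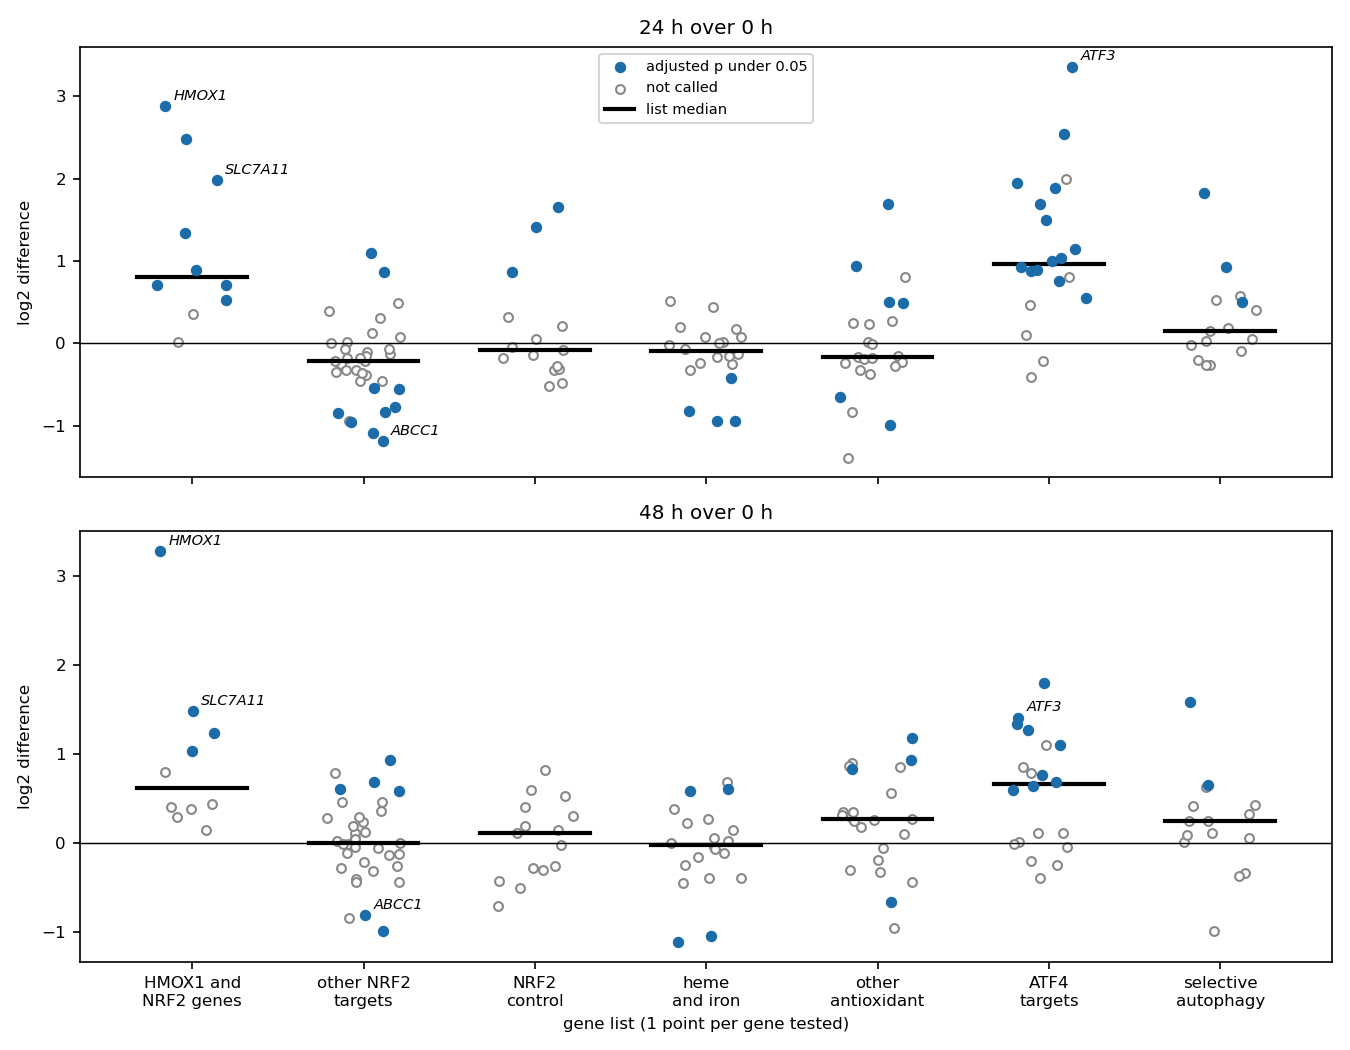
Log2 difference from 0 h at 24 and 48 h of each tested gene of the 10 members and of the other 6 lists (filled: adjusted p under 0.05), with each list's median as a bar. At 24 h the members centre on 0.80 and the genes of the ATF4 list on 0.97, while the other NRF2 targets centre on −0.22.

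Of the genes that control NRF2, 15 of 19 passed the filter, and at 24 h 3 were up, 0 were down and the median was −0.08. MAFF, a small MAF protein, rose by 1.65 (limma, adjusted p = 0.0017), and BACH1, the repressor that competes with NRF2 at HMOX1, by 1.41 (adjusted p = 0.00031). BACH1 stood at 170, 207.3 and 230.4 on the 0 h arrays (full-length, truncated, untreated) and at 443.1, 513.7 and 673.8 on the 24 h arrays. By 48 h it was at 324.6, 325.1 and 231.5, and the fall of 0.88 from 24 to 48 h passed (limma, adjusted p = 0.03). MAFF was uneven: it went from 442 to 522.3 with truncated NRSF and from 256.2 to 1647 in untreated cells. KEAP1, the NRF2 inhibitor, did not pass (−0.05, limma, adjusted p = 0.89). No gene of this list was called at 48 h against 0 h (4 higher and 0 lower at an unadjusted p under 0.05 in limma), and 1 was without the truncated 24 h array.

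The genes of heme and iron handling around heme oxygenase were not called up with it at 24 h. Of 25 listed, 20 passed the filter; 0 were called up, 1 was higher by unadjusted p under 0.05 in limma, 4 were called down, and the median was −0.10. The heme synthesis enzymes UROS (−0.95, limma, adjusted p = 0.042) and ALAD (−0.94, adjusted p = 0.017) and the porphyrin carrier ABCB6 (−0.82, adjusted p = 0.023) fell, as did UROD by 0.42 (adjusted p = 0.05 after rounding). Without the truncated 24 h array none of these calls held. HMOX2, the constitutive heme oxygenase, did not pass (0.20, limma, adjusted p = 0.61). At 48 h BLVRA and FTL, which act on the biliverdin and iron that heme oxygenase releases, were up, and ALAD (−1.04) and ABCB6 (−1.11) were down. None of the 4 passed when arrays were divided by their medians.

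Of other antioxidant enzymes and thiol proteins, 23 of 26 passed the filter. At 24 h 4 were up and 2 down, with a median of −0.17, and the 2 down are near the 8.2% of all genes called down. SESN2, sestrin, rose by 1.69 (limma, adjusted p = 0.00067), the glutaredoxin GLRX2 by 0.94 (adjusted p = 0.00016), the mitochondrial superoxide dismutase SOD2 by 0.50 (adjusted p = 0.016) and GLRX3, on an _x_at probe set, by 0.49 (adjusted p = 0.017). Catalase, CAT, fell by 0.99 (limma, adjusted p = 0.0014), and PRDX2 by 0.65 (adjusted p = 0.0044). At 48 h 3 were up and 1 down, with GLRX2 at 1.18, SOD2 at 0.93, GLRX3 at 0.83 and CAT at −0.66.

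ATF4 is the effector of the integrated stress response and also acts on SLC7A11. All 20 genes of its list passed the filter, and at 24 h 14 were called up and 0 down, with a median of 0.97. The largest called rises were ATF3 (3.36, limma, adjusted p = 1.2e-05), PPP1R15A, which recruits a phosphatase to end the response (2.54, adjusted p = 9.6e-08), DDIT3 (1.95, adjusted p = 1.6e-06) and STC2 (1.89, adjusted p = 2.8e-06). DDIT3 went from 196.3 to 663.1 with full-length NRSF, from 221.1 to 878.6 with truncated NRSF and from 194.4 to 840.1 without a construct. SLC3A2, the partner chain of SLC7A11 in the cystine exchanger, rose by 1.03 (limma, adjusted p = 0.00067). VLDLR, a lipoprotein receptor, differed by 2 ± 0.77 and CHAC1, which degrades glutathione, by 0.46, and neither passed (limma, adjusted p = 0.094 and 0.51). At 48 h 9 were up, with a median of 0.67, or 4 when arrays were divided by their medians. From 24 to 48 h 6 were called down and 0 up, where 1.78% of all genes were called down and 1.72% up. The median was −0.53, and that of all genes 0.01. The ATF4 and NRF2 lists were chosen with earlier results of these data known and were not tested against each other.

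Of 15 selective autophagy genes beside SQSTM1, 3 rose at 24 h and 0 fell, with a median of 0.15. They were GABARAPL1 (1.83, limma, adjusted p = 0.001) and MAP1LC3B (0.93, adjusted p = 0.00033), both proteins of the autophagosome membrane to which p62 binds, and the receptor TAX1BP1 (0.50, adjusted p = 0.019). At 48 h GABARAPL1 (1.59) and MAP1LC3B (0.65) were called.

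The genes whose 6 changes from 0 h lay nearest to those of HMOX1 were not members. Nearness was the root mean square distance between a gene's changes and those of HMOX1, over 13798 genes. The 6 changes share 3 baseline arrays, and no p is given. Because the distance counts the size of each change, a gene with much smaller rises ranks far off whatever the shape of its course. The nearest were the oxytocin receptor OXTR (0.80), the neuropeptide Y receptor NPY1R (0.83), the MYC antagonist MXD1 (0.84), the antisense RNA SBF2-AS1 (0.84) and the cytokine IL11 (0.86). They were followed by DUSP1, a MAP kinase phosphatase (0.91), RND3 (0.93), the chemokine CXCL8 (0.95), PLPP4 (0.96) and C11orf96 (0.98). NPY1R and PLPP4 were at the floor on 3 arrays each, SBF2-AS1 on 2 and OXTR on 1. CXCL8 was read by an _x_at probe set, and reads of SBF2-AS1 and an overlapping gene may not be separable. SLC7A11 was the member nearest to HMOX1, at rank 52 with a distance of 1.46, followed by SQSTM1 at rank 158. GCLC and NQO1 were the farthest, at ranks 3539 and 3600.

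Macrophages carry high HMOX1, so their markers were read on the same arrays. Every array label names the neuroblastoma line SK-N-AS, and none names another cell type. Of 10 macrophage and blood markers 3 passed the filter. The summed signal of the 8 with a usable probe set was 130.5 to 215.2 at 0 h, 234.9 to 333.1 at 24 h and 251.7 to 320.4 at 48 h. None of the 3 tested was called at 24 h. PTPRC, the defining leukocyte marker, read 57.78 to 106.9 at 0 h, 75.11 to 163.8 at 24 h and 134.6 to 175.4 at 48 h. Like HMOX1 it was higher at each later time within every series. CD163 and HBB, the other markers past the filter, were highest at 24 h in both construct series and at 48 h in untreated cells. With full-length NRSF CD163 read 33.04, 62.61 and 8.638 over time, and HBB 33.95, 71.19 and 28.66. AIF1 was at the floor on 7 arrays, TYROBP on 6, LYZ and CD14 on 4 each, CSF1R on 3 and CD163 on 1. CD68 and HBA1 had no usable probe set. The summed signal of epithelial markers was 2601 to 3959, 3606 to 4529 and 5729 to 6403 at the 3 times. Most of it was KRT18, on an _x_at probe set, at 2382 to 3670, 3325 to 4281 and 5432 to 6076. EPCAM was at the floor on 3 arrays, KRT19 on 5 and CDH1 on 6. The summed signal of endothelial markers was 142 to 219.9, 131.4 to 225.6 and 171.7 to 254.9. A signal on these probe sets does not show that such cells were present in the line. Their presence and any part in the HMOX1 result were not tested. In bulk RNA, more cells that express a gene and more RNA per cell cannot be told apart.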

How the data were processed

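Biotin-labelled cRNA from total RNA of 9 SK-N-AS samples, 1 array in each of 9 groups, was read. As deposited, each probe set has a linear signal intensity that the authors made with GCOS (named in the submitters' processing notes; version and settings not given in the sources used here). The series text speaks of triplicates and batches, but the labels give 1 array a group and no batch, so p-values reflect the spread between single arrays alone.

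Of 54675 probe sets, 62 were controls; 41091 named 1 gene (41037 matched by Entrez ID) and were used, 1801 named several genes and 11721 none. Signals were floored at the 25th percentile and put on the log2 scale, and the probe set with the highest mean stood for a gene. Genes with a mean log2 above 4.2, the 40th percentile, were tested with limma 3.58.1 (R 4.3.3; data.table package, version 1.17.8). lmFit and eBayes with a trend gave two-sided p-values, called where the Benjamini-Hochberg adjusted value was under 0.05. Time was fitted beside series (4 residual degrees of freedom, 16.4 in all). The exposure model added each construct after 0 h (2 residual, 16.3 in all), with 24 and 48 h as repeated readings of 1 effect. The scripts were tested on simulated data with 200 of 13799 genes changed. Of changes of 2-fold, the time model recovered 54.5% and the exposure model 0%. Of changes of 4-fold they recovered 78% and 49%. False calls were 6.84% and 0% of all calls at 2-fold, and 5.45% and 6.67% at 4-fold.

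The members and lists were chosen with earlier results of these data known. Named were REST, the 10 members, the 10 genes nearest to HMOX1, up to 4 called genes with the largest change in each list, and single genes where a list's counts need them. BLVRA, BLVRB, FTH1, FTL, MAFG and SESN2 each stand in more than 1 list. Alternatives changed the floor, scaling, filter, probe set rule, variance trend and series term, or left out a series or the truncated 24 h array. With 9 arrays, precision is low throughout.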

Additional observations from a re-analysis of the deposited data

Results flagged for a closer look

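OSGIN1 moved in opposite directions at 48 h. Against the 0 h array of the same series it was 1.80 higher in log2 with full-length NRSF and 1.90 higher in untreated cells, but with truncated NRSF it was −1.29. The truncated 48 h signal of 3.238 and the untreated 0 h signal of 3.922 lie below the floor of 8.266, so the values for the truncated and untreated series are set by the floor on one side. Each series has 1 array at 48 h, and the difference at that time was not tested.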

How the results depend on the processing

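HMOX1 was called up at 24 and 48 h in all 14 alternatives, with differences of 2.59 to 3 and 2.97 to 3.37, and SLC7A11 and SQSTM1 were called at 24 h in all 14. SRXN1 was called in 13 of 14 at 24 h, TXNRD1 in 10, GCLM and NFE2L2 in 8 each, and OSGIN1 in 5 of 13. At 48 h SLC7A11 and GCLM were called in 13 of 14 and SQSTM1 in 11. The only reversed call of a member was TXNRD1 at 24 h, −0.42 with the mean of all its probe sets, where the dim probe set enters the mean.

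All genes called numbered 2242 at 24 h, 1156 at 48 h and 483 between 24 and 48 h, and those for full-length against untreated, truncated against untreated and full-length against truncated NRSF were 1, 5 and 2. With each array divided by its median these became 1119, 274, 111, 1 for full-length against untreated, 54 and 17, with 4 members at 24 h; of the lists, other NRF2 targets had 6, heme and iron genes 1 and other antioxidant genes 3 calls at 24 h, and at 48 h other NRF2 targets had 1, heme and iron genes 0, ATF4 targets 4 and autophagy genes 1. With no filter the counts were 1264, 394 and 0, with 0, 0 and 0 for the constructs, and 1462 and 238 probe sets at 24 and 48 h against 3466 and 1647. With the mean of a gene's probe sets they were 1213 (4 members), 477 and 175, and 0, 0 and 0. Without the variance trend they were 542 (3 members), 18 (1 member) and 0, with 0, 0 and 0, and 446 and 2 probe sets. Without the truncated 24 h array they were 1386 at 24 h and 201 between 24 and 48 h, with 0 heme and iron genes at 24 h and 1 NRF2 control gene at 48 h. With the floor at the 40th percentile 1 member was called between 24 and 48 h, and the construct counts were 0, 1 and 0. Full-length against truncated NRSF gave 4 with log2(signal + 16), 4 with quantile normalization, 0 with the filter at the 60th percentile and 0 with probe sets without a suffix; truncated against untreated gave 3 with quantile normalization and 1 with the filter at the 60th percentile. Leaving out each series in turn gave 890 to 1465, 212 to 660 and 87 to 195 genes, 5 to 6 members at 24 h and 0 to 1 between 24 and 48 h. The cause of these shifts was not tested, beyond the fewer arrays or changed gene sets of the settings themselves. The list counts under other scalings and without the truncated 24 h array were chosen after seeing the data.

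No paired analysis by replicate number was possible because each group holds 1 array and the labels carry no number; the series was the block of the time model. Without the series term (no replicate block) 2038, 967 and 392 genes and 8, 4 and 0 members were called. Low signal limits OSGIN1 most, with 2 of its 9 arrays at the floor.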
